A study of Mus musculus with 17 samples.

Results

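The transcripts followed here are those of 10 genes of fat cells, Adipoq, Cfd, Retn, Lep, Plin1, Cidec, Fabp4, Lpl, Pparg and Car3, among the 21931 genes of the deposited table. They were selected on gene names and read by those names in the counts of all tumors. Cfd and Retn entered because they were past the fold-change threshold of the study between the groups, and the other 8 are adipocyte genes measured in the same tumors. Cfd and Retn were thus chosen by the log2 fold change between the groups and its p, and the difference between groups is described below without a test for all members.

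C57BL/6J mice of wild-type genotype, 6 to 8 weeks old, carried MC38 colon cancer cells under the skin on both sides. In the cryoablation group the tumor of one side was frozen on day 7 in 2 freezing cycles, and the tumor of the other side, which was not frozen, was taken 5 days later. The freezing time of a cycle differs between the labels and the methods. Bulk RNA sequencing was done on 9 distant tumors labelled control and 8 labelled cryoablation, and the labels were followed where the text of the paper gives the group sizes the other way round. The labels give no sham procedure for the control mice. All mice carried the same graft of 1 cell line, and the surrounding skin and its fat belong to the host.

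White adipocytes store triglyceride in a lipid droplet and secrete hormones and complement factors. PPARG drives their differentiation and switches on many of the genes listed here, and subcutaneous fat lies directly next to a tumor grown under the skin. In bulk tissue, fewer cells of a type and less RNA per cell cannot be told apart.

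Total counts were 14154687 to 17898672 in the control tumors and 13524899 to 16847050 in the cryoablation tumors. Levels are given as CPM, counts scaled to the library total, after TMM normalization, which scales each library against the others. Of the 10 members, 9 passed the filter on low counts and Lep did not. Cryoablation replicates 2, 4 and 5 stood apart from the rest, since their short genes were high against their long genes. The difference in median log2 deviation from the control mean between 259 genes under 1000 bases and 5631 genes over 5000 bases was 1.44 to 1.78 in these 3 tumors, -0.46 to 0.83 in the control tumors and -0.61 to 0.21 in the other 5 cryoablation tumors. The members' fold changes and correlations are therefore given with and without them. Of the epithelial markers, Krt8, Krt18, Krt19, Cdh1 and Epcam reached 609, 568, 949, 427 and 127 counts in the highest tumor, while the intestinal genes Cdx2 and Vil1 had 0 and at most 11.

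The authors' table places Cfd (ENSMUSG00000061780) on chromosome 10 at 79726687 to 79728489, Retn (ENSMUSG00000012705) on chromosome 8 at 3705770 to 3710110 and Adipoq (ENSMUSG00000022878) on chromosome 16 at 22965286 to 22976778, all on the forward strand. These positions differ from the GRCm38.p6 positions below, although the labels name GRCm38, so no build is given for the positions of the table. Promoters of 7 of the 10 members were found in the RefSeq table of mouse build GRCm38.p6, each running from 250 bases before to 50 after the start of the gene. Cfd and Retn are shown because they are the pair chosen for their response. The sequence of Cfd lies at chr10:79890603-79890902 and that of Retn at chr8:3655520-3655819, both on the forward strand, written 5′ to 3′.
Cfd: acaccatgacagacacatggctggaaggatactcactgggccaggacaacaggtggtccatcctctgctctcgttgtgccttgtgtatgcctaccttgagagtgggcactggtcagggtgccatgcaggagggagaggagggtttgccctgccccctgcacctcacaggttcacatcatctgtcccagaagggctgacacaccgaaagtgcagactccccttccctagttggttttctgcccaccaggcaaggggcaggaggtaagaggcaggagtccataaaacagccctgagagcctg
Retn: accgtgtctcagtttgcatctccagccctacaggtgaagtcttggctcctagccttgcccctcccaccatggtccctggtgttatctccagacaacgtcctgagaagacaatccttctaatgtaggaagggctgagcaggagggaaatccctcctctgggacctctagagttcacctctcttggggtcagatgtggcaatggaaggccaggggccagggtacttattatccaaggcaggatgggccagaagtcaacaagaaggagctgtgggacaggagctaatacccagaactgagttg
Neither holds TATAAA, the C/EBP-like TTGCNNAA or the nuclear receptor element AGGTCA, searched on both strands, and the Adipoq promoter holds none of them either. TATAAA stood in 13.6% of 32851 promoters of the same length, TTGCNNAA in 10.8% and AGGTCA in 16.3%. The PPAR response element, a repeat of AGGTCA, stood in 13 of these promoters and in none of those found for the 7 members searched. Plin1 and Lep, picked after the search, are shown as members with the C/EBP-like letters, which are in capitals. Plin1 lies at chr7:79732727-79733026 on the reverse strand and Lep at chr6:29059971-29060270 on the forward strand.
Plin1: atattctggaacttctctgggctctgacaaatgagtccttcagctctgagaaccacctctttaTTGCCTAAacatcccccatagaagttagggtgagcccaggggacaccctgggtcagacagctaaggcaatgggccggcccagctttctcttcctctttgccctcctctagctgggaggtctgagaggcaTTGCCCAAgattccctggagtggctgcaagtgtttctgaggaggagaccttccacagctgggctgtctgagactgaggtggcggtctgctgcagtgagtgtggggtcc
Lep: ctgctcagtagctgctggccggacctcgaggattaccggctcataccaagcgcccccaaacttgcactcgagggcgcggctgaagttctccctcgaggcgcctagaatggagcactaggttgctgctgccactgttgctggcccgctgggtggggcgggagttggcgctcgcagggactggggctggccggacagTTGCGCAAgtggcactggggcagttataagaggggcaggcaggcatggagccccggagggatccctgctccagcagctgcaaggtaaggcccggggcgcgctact
The capitals begin 187 and 58 bases before the start in Plin1 and 55 bases before it in Lep, where the letters read the same on both strands. A second promoter of Cidec holds the same motif 198 bases before its start. The 3 promoters of Pparg hold AGGTCA in 2 cases and the C/EBP-like letters in 1. A match describes the letters of these windows only. Fabp4, Lpl and Car3 are named without a sequence.

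Among the secreted products, Cfd was the most abundant transcript per length. It encodes adipsin, complement factor D, the protease that cleaves factor B in the alternative pathway. In the control tumors Cfd lay between 3.95 and 56.3 CPM with a median of 10.8, and in the cryoablation tumors between 1.49 and 121 with a median of 60.8. The cryoablation group thus held both the highest and the lowest tumor, and 4 of its 8 tumors were above the highest control. Replicates 2, 3, 4 and 5 of cryoablation reached 121, 77.4, 71.5 and 99.0 CPM. The fitted log2 fold change was 1.61 ± 0.67 (SE, 9 control and 8 cryoablation tumors).

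Retn encodes resistin, a cysteine-rich hormone that in mice is made chiefly by fat cells. Its level was 0.075 to 3.40 CPM in the control tumors, with a median of 0.92, and 0 to 7.83 in the cryoablation tumors, with a median of 3.62. The same 4 cryoablation tumors exceeded the highest control. Counts were low, 1 to 62 in the control and 0 to 107 in the cryoablation tumors, where a count of 0 allows up to 3 counts. The fitted log2 fold change was 1.57 ± 0.72.

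Adipoq encodes adiponectin, the hormone that most sharply marks mature fat cells. It lay between 0.54 and 7.94 CPM in the control tumors (median 1.64) and between 0.18 and 12.2 in the cryoablation tumors (median 4.51). Only cryoablation replicate 3 was above the control range, and the fitted log2 fold change was 0.83 ± 0.60. Lep, which encodes the satiety hormone leptin, was near the limit of detection. It had 3 to 17 counts in the control and 0 to 47 in the cryoablation tumors, and the fit without a filter gave 0.91 ± 0.66.

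Plin1 encodes perilipin 1, the coat protein that guards the lipid droplet. Its range was 0.46 to 4.22 CPM in the control tumors (median 1.11) and 0.24 to 10.6 in the cryoablation tumors (median 2.06). Cidec, whose product fuses droplets into a single large one, lay between 0.60 and 4.99 CPM (median 1.87) and between 0.18 and 12.1 CPM (median 4.16). The ranges overlapped for both droplet genes, with 2 cryoablation tumors above the controls for Plin1 and 1 for Cidec. Their log2 fold changes were 1.06 ± 0.61 and 0.85 ± 0.57.

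Fabp4 encodes the fatty acid carrier of the adipocyte cytoplasm and is also made by endothelial cells and macrophages. It was 12.6 to 44.7 CPM in the control tumors (median 23.6) and 15.1 to 83.9 in the cryoablation tumors (median 56.2), and 5 of 8 cryoablation tumors were above every control. Its log2 fold change of 0.86 ± 0.35 had the smallest SE of the members. Lpl encodes lipoprotein lipase, which frees fatty acids from circulating lipoproteins and is shared with macrophages and muscle. Its 7.77 to 73.9 CPM in the control tumors (median 20.6) enclosed all but the 2 lowest of the values of 7.05 to 52.0 in the cryoablation tumors (median 31.3). The log2 fold change of Lpl was -0.0090 ± 0.47.

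Pparg, the nuclear receptor itself, lay between 0.42 and 3.24 CPM in the control tumors and between 0.36 and 2.89 in the cryoablation tumors, with medians of 0.90 and 1.55. No cryoablation tumor exceeded the controls, and the log2 fold change was 0.24 ± 0.39. Car3 encodes carbonic anhydrase 3, abundant in fat and in slow muscle. It was 5.26 to 43.9 CPM in the control tumors (median 9.92) and 3.10 to 81.3 in the cryoablation tumors (median 22.7), with a log2 fold change of 0.70 ± 0.55.

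**Figure D1:**
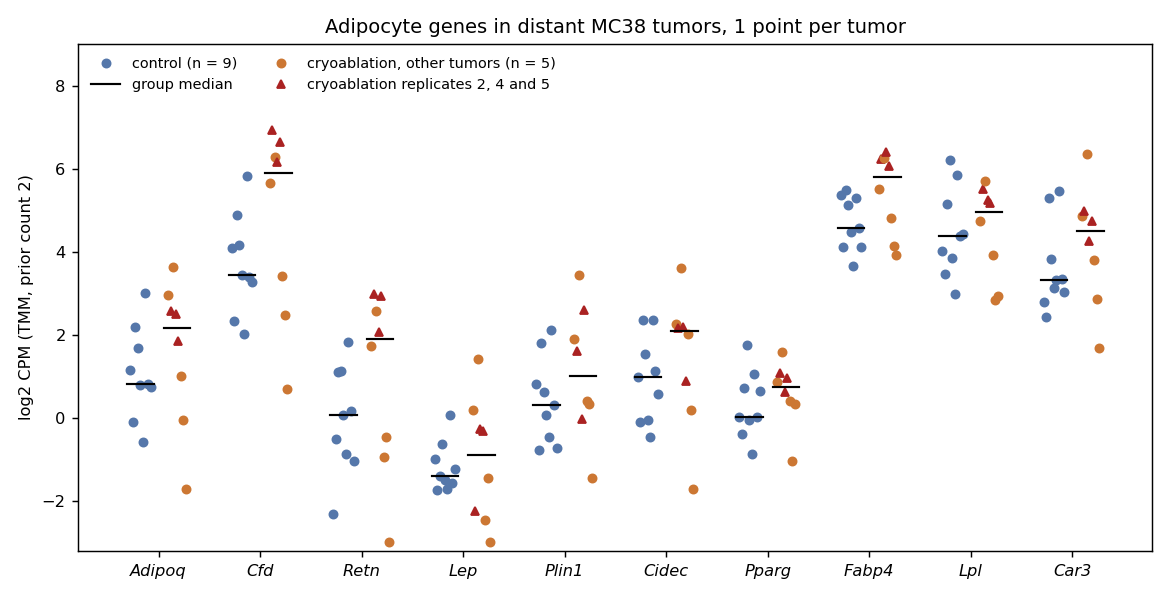
Each point is the log2 CPM of 1 gene in 1 distant tumor, with control tumors on the left and cryoablation tumors on the right of each gene name, and black lines mark group medians. Triangles are cryoablation replicates 2, 4 and 5; replicates 2 and 5 are the highest for Cfd and Retn, and all 3 lie among the other tumors for Adipoq, Cidec and Lpl.

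The members' mean was higher in the cryoablation group for 9 of 10 genes, all but Lpl, and the spread of log2 CPM was wider there for 9 of 10, all but Pparg. Of the 9 members tested, 2 were past the threshold of the study, which asks for more than 1 in log2 fold change, up or down, and for p under 0.05 before adjustment. These are the genes that were taken for passing it. Over all 13005 genes 0.492% were past it, 0.354% higher and 0.138% lower, so the members' count is given as a description. Retn was the member just inside the threshold. Just outside stood Plin1, past the fold but not the p, and Fabp4, past the p but not the fold. The median log2 fold change of the 9 members was 0.85, beside -0.0088 over all genes tested.

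Per length, the order of the median control levels in FPKM was Cfd at 11.9, Fabp4 at 5.61, Car3 at 3.67, Lpl at 2.10, Adipoq at 1.26, Cidec at 0.94, Retn at 0.54, Pparg at 0.32, Plin1 at 0.25 and Lep at 0.083. In the cryoablation tumors Cfd was at 62.4, Fabp4 at 10.9, Car3 at 6.47, Adipoq at 2.74, Lpl at 2.63, Retn at 2.18, Cidec at 2.07, Pparg at 0.45, Plin1 at 0.41 and Lep at 0.11. Retn moved ahead of Cidec, and Adipoq ahead of Lpl. The ranges of neighbouring genes in either order overlapped. The listed length of Fabp4, 4489 bases, is the whole span from its start to its end in the table, which is not so for the other members, so its FPKM may be understated against theirs.

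The tumors differed in all members together. Cryoablation replicate 3 was among the 3 highest tumors for all 10 members and was above every control for 8 of them. Cryoablation replicate 8 was among the 3 lowest for 9 members and the lowest of all 17 for 7. Among the control tumors, replicate 7 was in the top 3 for 6 members, and replicate 4 was the highest of all tumors for Pparg and Lpl. This spread was already present without treatment. The SD of log2 CPM over the 9 control tumors was 0.66 for Fabp4, the least variable member tested, and 1.29 for Retn, the most variable. These lie at percentiles 91.7 and 99.4 of all genes tested, whose median SD was 0.27.

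How the genes vary together among tumors was tested over all tumors, where the difference between groups that chose Cfd and Retn also enters, with group means removed, and within groups. Over 17 tumors, Cfd and Retn were each correlated with every other member, and all 17 relations passed an adjusted p of 0.05 by a two-sided permutation test with 100000 resamples, adjusted over 31 relations. Cfd and Adipoq had r = 0.94 (rho = 0.92, adjusted permutation p = 7.7e-05). The raw p of that relation, 1e-05, is the smallest the resamples can give. Cfd and Fabp4 had r = 0.94 (rho = 0.94, adjusted permutation p = 7.7e-05), and Cfd and Retn had r = 0.89 (rho = 0.88, adjusted permutation p = 7.7e-05). The weakest relations involved the low-count Lep and Pparg, with r of 0.66 and 0.68 to Cfd and 0.62 and 0.61 to Retn. With group means removed, r was 0.94 for Cfd and Adipoq, 0.94 for Cfd and Fabp4 and 0.88 for Cfd and Retn (adjusted permutation p = 0.00010 for each). Without the 2 tumors farthest from the median of Cfd, r was 0.92 with Adipoq, 0.94 with Fabp4 and 0.83 with Retn.

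Within groups the same relations differed in strength. In the 9 control tumors Cfd and Adipoq had r = 0.992 (adjusted exact permutation p = 0.00017), the highest of the 45 pairs of members. Cfd and Retn reached only r = 0.60 there, which did not pass (adjusted exact permutation p = 0.12). That value rested on control replicate 1 with its 1 Retn count, since the other 8 control tumors gave 0.90. The median r over the 45 pairs was 0.79 in the control tumors, with the lowest at 0.39 between Retn and Fabp4, which was 0.94 without the same tumor. In the 8 cryoablation tumors the median was 0.78, Cfd and Retn were the closest pair at r = 0.984 (adjusted exact permutation p = 0.0088), and Cfd and Adipoq had r = 0.923 (adjusted exact permutation p = 0.014). Without cryoablation replicates 2, 4 and 5 the 14 other tumors gave r = 0.996 for Cfd and Adipoq and 0.83 for Cfd and Retn. Among the 5 cryoablation tumors that remain, the median over the pairs was 0.94 and the closest pair was Cfd and Adipoq at 0.999.

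The counts of Cfd and Adipoq held a nearly fixed proportion in most tumors. In the controls there were 5.69 to 8.11 Cfd counts per Adipoq count, a 1.43-fold range, while each gene alone varied more than that from the lowest to the highest control. The 5 other cryoablation tumors had 5.58 to 8.33. Cryoablation replicates 2, 4 and 5 had 20.75, 12.9 and 28.5, with 95% intervals of 16.3 to 26.9, 10.1 to 16.6 and 20.4 to 40.9 that cover counting error only. These 3 tumors were outside the control range, and no other tumor was by more than its interval. In all 3, Adipoq was inside its control range, at 3.47 to 5.85 CPM.

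Retn was less steady against Adipoq. The ratio of counts was 0.036 to 0.78 in the controls (median 0.57), and 1.34, 0.73 and 2.17 in cryoablation replicates 2, 4 and 5. Replicates 2 and 5 were thus above the control range and replicate 4 was inside it, while the other 5 tumors had 0 to 0.71. The median over these 3 tumors was 3.09 times the control median for Cfd and 2.34 times for Retn. For the other 7 members it was 0.62 to 1.10 times, with Fabp4 the highest at 1.10 and Pparg and Lpl the lowest at 0.62.

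**Figure D2:**
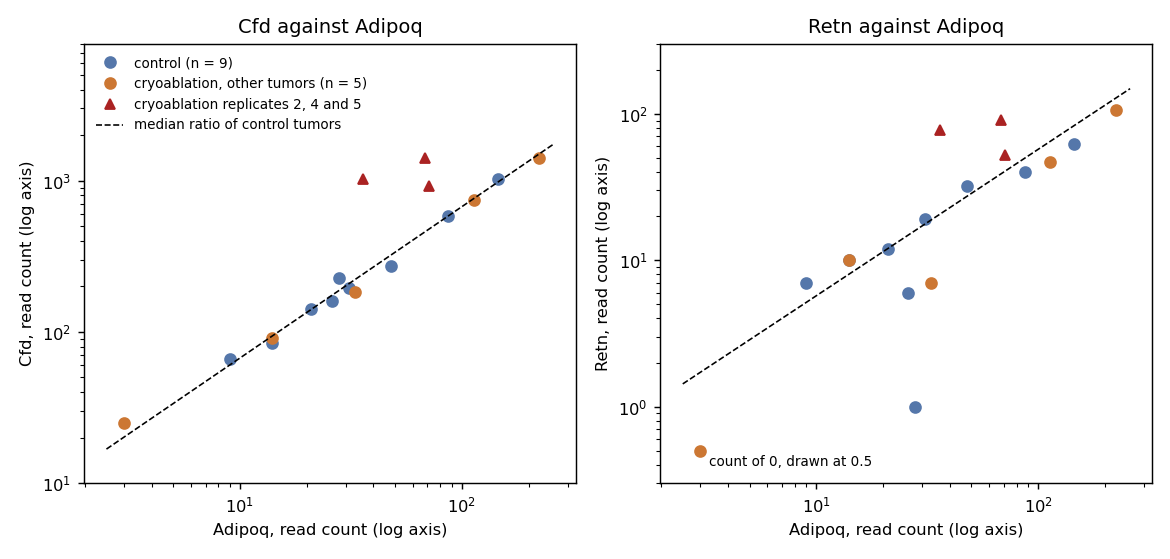
Read counts of Cfd (left) and Retn (right) are drawn against those of Adipoq on log axes, 1 point per tumor, with a dashed line at the median control ratio. For Cfd, 14 of 17 tumors follow the line and the triangles, cryoablation replicates 2, 4 and 5, lie above it; for Retn, control replicate 1 with 1 count lies far below.

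Cfd is the shortest of these genes, at 922 bases. The 31 genes of 800 to 1000 bases and 55 to 62% GC, like Cfd, had a median log2 deviation from the control mean of 1.11 to 1.38 in cryoablation replicates 2, 4 and 5, against 2.45 to 3.21 for Cfd and 0.77 to 1.5 for Adipoq. In the control tumors that median was -0.34 to 0.62. Across the 9 members, the rank correlation of listed length with the change in ratio was -0.57, a description over genes of the same tumors. Other short adipocyte genes, looked at after these values were seen, differed among themselves. Adig (810 bases) had 0.43, 0.52 and 0.47 counts per Adipoq count in the 3 tumors, over a control range of 0 to 0.32. Sncg (852 bases) had 0.85, 0.82 and 1.25, inside its control range of 0.28 to 1.33. G0s2 (871 bases) had 0.59, 0.68 and 1, against 0.16 to 0.75 in the controls. The part of gene length in the Cfd and Retn levels was not tested beyond the fits given next.

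**Figure D3:**
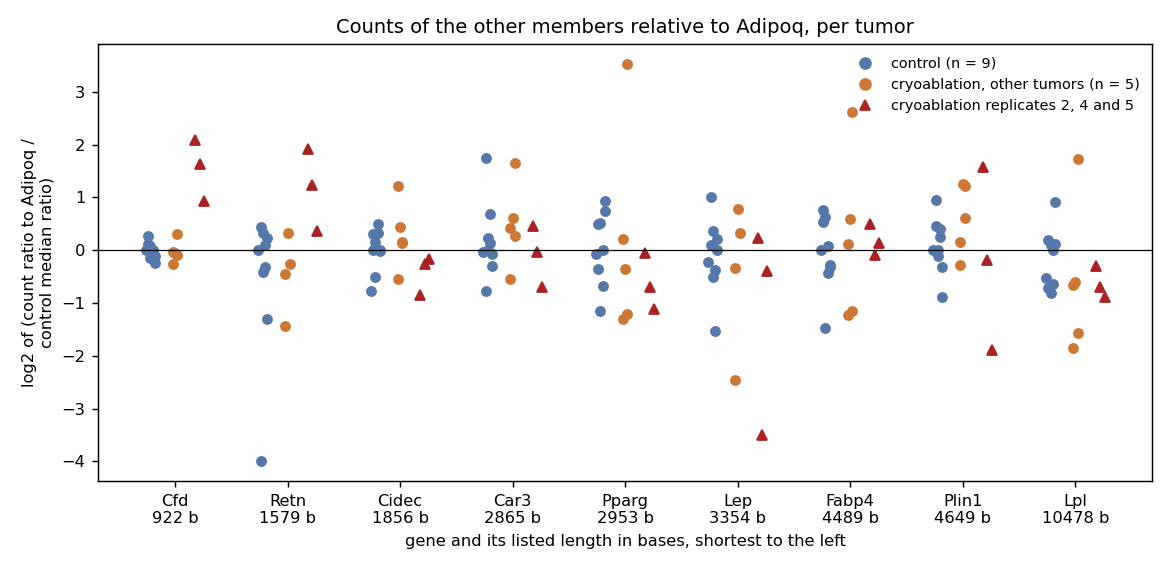
For each member the log2 of its count ratio to Adipoq over the control median ratio is drawn for every tumor with counts, and genes are ordered by listed length in bases. The triangles lie above 0 for Cfd and Retn, the shortest genes drawn, and on both sides of 0 or below it for the rest.

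The fold changes of Cfd and Retn rested on these tumors. Without cryoablation replicates 2, 4 and 5, the log2 fold change was 0.70 for Cfd, 0.71 for Retn and 0.36 for Fabp4, and 0 members were past the threshold. Adipoq at 0.78, Plin1 at 1.08, Cidec at 0.94 and Car3 at 0.72 stayed near the values with all tumors, 0.83, 1.06, 0.85 and 0.70. The medians of the 5 remaining cryoablation tumors were 10.5 CPM for Cfd and 0.60 for Retn, which is close to the control medians of 10.8 and 0.92. When trends over length and GC were removed by offsets, Cfd was at 1.06 and Retn at 1.28, and again 0 members were past the threshold. With limma voom and a weight for the quality of each tumor, Cfd was at 0.05 and Retn turned to -0.60.

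Single tumors also decided the calls. Cfd no longer passed the threshold without cryoablation replicate 2, at 1.33, or without replicate 5, at 1.43. Retn passed when control replicate 3, 4 or 7 or cryoablation replicate 6, 7 or 8 was left out, and did not pass when any other single tumor was, and its log2 fold change ranged from 1.32 to 1.94. Adipoq, Plin1, Cidec and Car3 leaned on cryoablation replicate 3 instead, since without it they were at 0.45, 0.48, 0.36 and 0.19. Without control replicate 7, 4 of 9 members were past the threshold, Cfd and Retn among them, where 70 of all 12937 genes tested were.

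**Figure D4:**
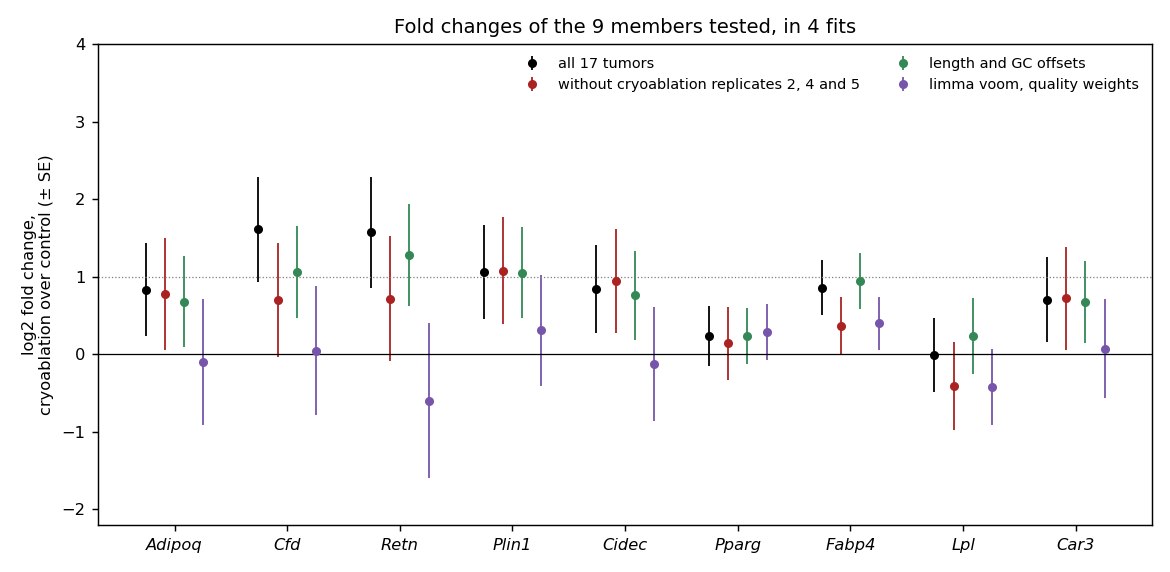
Points are log2 fold changes of cryoablation over control for the 9 members tested, with bars of 1 SE, in 4 fits. Cfd falls from 1.61 to 0.70 without replicates 2, 4 and 5 while Plin1 stays at 1.06 and 1.08. The voom fit with quality weights puts Cfd at 0.05, Retn at -0.60, Adipoq at -0.10 and Cidec at -0.12.

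The rest of the adipocyte program was read from 10 lists of 88 genes that are not members. Of 65 genes tested, 1 was past the threshold, G0s2, higher, and 0 were lower. G0s2 encodes the inhibitor of the lipase ATGL, and it had 1.18 ± 0.93 CPM in the control and 2.71 ± 1.39 CPM in the cryoablation tumors (SD, n = 9 and 8). Its log2 fold change was 1.18 ± 0.48 with an adjusted p of 0.73 by edgeR's quasi-likelihood test with Benjamini-Hochberg adjustment. It is 871 bases long, and its fold change fell to 0.88 without cryoablation replicates 2, 4 and 5. No gene of the table passed an adjusted p of 0.05 by edgeR, DESeq2 or limma voom, and by edgeR 639 of 13005 (4.91%) had an unadjusted p under 0.05. Among the 65 genes 2 did, G0s2 and Lipe, the hormone-sensitive lipase (0.54 ± 0.23). Lipe went to -0.014 without the same 3 tumors.

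Of 18 other adipocyte genes 10 were tested and 0 were past the threshold, with a median log2 fold change of 0.05. Plin4, a droplet coat protein, was at 0.25 ± 0.24, and Cd36, a fatty acid receptor also made by macrophages and endothelium, was at -0.20 ± 0.34. Among the regulators of fat cell differentiation, where 8 of 11 were tested and 0 called, Cebpd was at 0.46 ± 0.26 and Srebf1 at -0.02 ± 0.09. In lipolysis all 9 genes were tested, and Pnpla2, which encodes ATGL, was at 0.13 ± 0.13 and Plin2 at -0.09 ± 0.10. Triglyceride synthesis (11 of 11 tested) had a median of 0.06, with Acly at -0.12 ± 0.18 and Scd1 at 0.11 ± 0.18. Fatty acid uptake (7 of 8 tested) gave 0.08 ± 0.10 for Slc27a1 and 0.07 ± 0.26 for Fabp5. None of these lists had a gene past the threshold other than G0s2.

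The partners of the secreted members were measured as well. Of the receptors of adiponectin and leptin, 4 of 4 were tested, and Adipor1 was at 0.03 ± 0.07 and Cdh13 at 0.05 ± 0.17. The alternative complement pathway, in which adipsin works, had 6 of 8 genes tested and a median of -0.23. C3, its central component, was at -0.67 ± 0.42 and Cfp, properdin, at 0.04 ± 0.30. The resistin-like genes Retnla and Retnlg, whose products belong to other cells, were at -0.05 ± 0.84 and 0.26 ± 0.68. Brown fat genes were near 0: Ucp1, its defining uncoupling protein, had at most 1 count in any tumor, 5 of 9 genes had at most 3, and the single gene tested, Cox7a1, was at 0.85 ± 0.41. The progenitor genes Ly6a and Cd34 were at 0.06 ± 0.13 and 0.05 ± 0.09, the only 2 of 7 tested above 0, with a list median of -0.097 and Dpp4 the lowest at -0.83 ± 0.45.

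**Figure D5:**
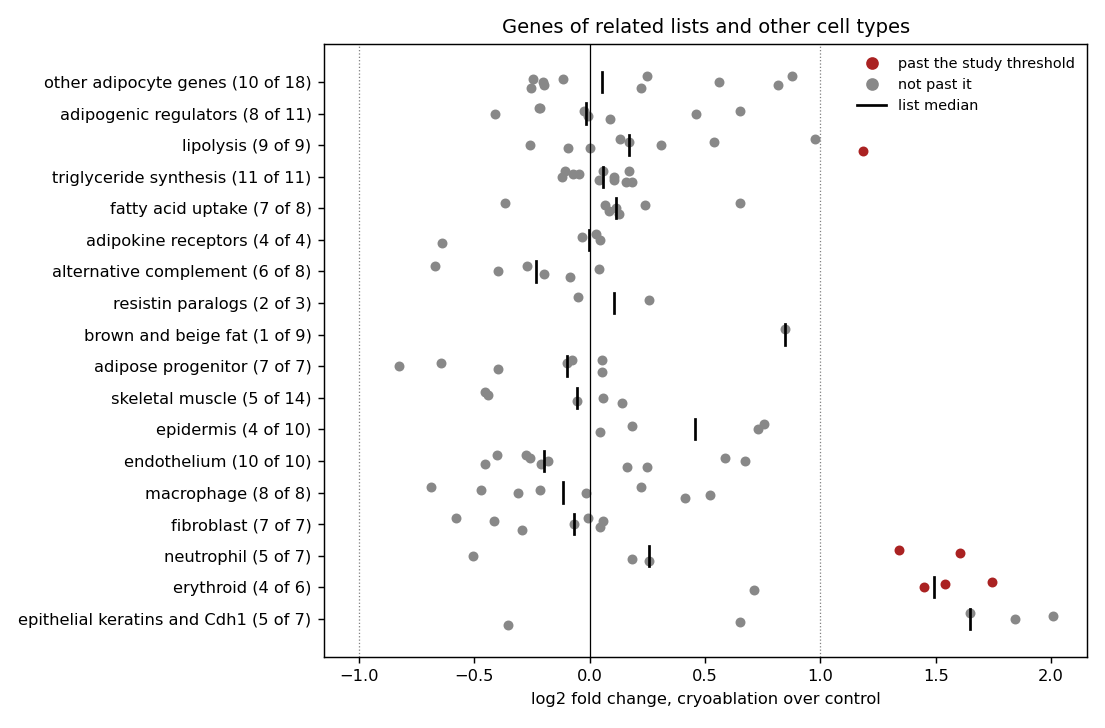
Each point is the log2 fold change of 1 tested gene, in rows by list with the number tested of the number listed, and a black bar marks the list median. Among the lists of fat biology, 1 red point, G0s2, is past the study's threshold; the other red points are S100a8, S100a9 and 3 globin genes.

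Skeletal muscle and skin, which also border a subcutaneous tumor, were followed as well, since muscle also makes Car3. The summed level of 14 muscle genes was 5.13 to 198 CPM in the control and 6.35 to 85.5 in the cryoablation tumors, and 0 of 5 tested were past the threshold (Acta1 -0.45 ± 1.22, Tnnt3 -0.05 ± 0.56). Tnnc2 was at 0 in all tumors. Cfd was not related to the mean of this list over 17 tumors (r = -0.19, rho = -0.10, adjusted permutation p = 0.47). The sum of 10 epidermal genes was 194 to 419 CPM in the control and 224 to 513 in the cryoablation tumors, and 0 of 4 tested were called (Krt14 0.18 ± 0.25, Sbsn 0.04 ± 0.22). All 4 were above 0 with a median of 0.46, and Krt10, at 0.73 ± 0.26, was at 0.14 without cryoablation replicates 2, 4 and 5. With this list Cfd had r = 0.63 over all tumors (rho = 0.60, adjusted permutation p = 0.010), 0.55 without the 2 farthest tumors and 0.28 within the 9 control tumors (adjusted exact permutation p = 0.51). Without cryoablation replicates 2, 4 and 5 that r was 0.37 and did not pass (adjusted permutation p = 0.22).

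With the mean of the other adipocyte genes Cfd had r = 0.84 over 17 tumors (rho = 0.83, adjusted permutation p = 0.00018), 0.83 without the 2 farthest tumors and 0.93 within the control group. Cfd also passed with neutrophil genes (r = 0.70, rho = 0.62, adjusted permutation p = 0.0045) and macrophage genes (r = 0.55, rho = 0.69, adjusted permutation p = 0.026). Leaving out the same 2 tumors gave 0.58 and 0.56. The difference between groups that chose Cfd enters these values, and S100a8 and S100a9 of the neutrophil list were called in it. With group means removed, r was 0.665 and 0.63 (adjusted permutation p = 0.0058 and 0.0096). Within groups, only neutrophil genes in the control tumors passed (r = 0.77, adjusted exact permutation p = 0.044). In the cryoablation tumors neutrophil genes had r = 0.65 (adjusted exact permutation p = 0.099). Endothelial genes (r = 0.45, rho = 0.44, adjusted permutation p = 0.084) and fibroblast genes (r = 0.39, rho = 0.50, adjusted permutation p = 0.13) did not pass over 17 tumors. With group means removed, fibroblast genes passed (r = 0.50, adjusted permutation p = 0.0496) and endothelial genes did not (r = 0.48, adjusted permutation p = 0.057). Without cryoablation replicates 2, 4 and 5, endothelial and fibroblast genes both passed at r = 0.59 (adjusted permutation p = 0.034 and 0.037). Macrophage genes did not pass there (r = 0.41, adjusted permutation p = 0.17), and neutrophil genes did (r = 0.63, adjusted permutation p = 0.028). The differences between these correlations were not tested. Retn passed with the other adipocyte genes (r = 0.76, rho = 0.75, adjusted permutation p = 0.00095), neutrophil genes (r = 0.74, rho = 0.69, adjusted permutation p = 0.0020) and macrophage genes (r = 0.51, rho = 0.62, adjusted permutation p = 0.045). Its r was 0.45 with epidermal, 0.46 with endothelial, 0.43 with fibroblast and -0.09 with muscle genes, and none of these 4 passed over 17 tumors. With group means removed, Retn passed with endothelial (r = 0.50, adjusted permutation p = 0.0496) and fibroblast genes (r = 0.54, adjusted permutation p = 0.033). Without cryoablation replicates 2, 4 and 5 it passed with both (r = 0.61, adjusted permutation p = 0.028 for each). Macrophage genes did not pass there (r = 0.36, adjusted permutation p = 0.23).

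Other cell types were listed to show what the tumors held. The summed macrophage genes were 1026 to 2816 CPM in the control and 779 to 2639 in the cryoablation tumors, with C1qa at 0.52 ± 0.35 and C1qb at 0.41 ± 0.32, while 5 of 8 genes were below 0 (median -0.11, Adgre1 the lowest at -0.69 ± 0.29), and 0 were past the threshold. Endothelial genes summed to 107 to 246 CPM and 107 to 197 CPM (Pecam1 -0.27 ± 0.18, Cdh5 -0.26 ± 0.21), with 4 of 10 above 0, a median of -0.20 and Cldn5 (0.67 ± 0.34) and Egfl7 (0.59 ± 0.26) the highest. Egfl7 was at 0.0015 without cryoablation replicates 2, 4 and 5. Fibroblast genes summed to 6693 to 13724 CPM and 4354 to 10147 CPM (Col1a2 -0.42 ± 0.24, Col3a1 -0.07 ± 0.15), with 2 of 7 above 0 and a median of -0.07. In the neutrophil list, which shares Retnlg with the resistin-like genes, 2 of 5 tested were called higher, S100a8 (1.34 ± 0.53) and S100a9 (1.61 ± 0.65). The more abundant Mmp9 and Csf3r of that list were at 0.18 ± 0.19 and -0.51 ± 0.42. In the erythroid list 3 of 4 were, Hba-a1 (1.75 ± 0.56), Hbb-bs (1.54 ± 0.55) and Hbb-bt (1.45 ± 0.49), and the 5 genes called in these lists are 522 to 812 bases long. Without cryoablation replicates 2, 4 and 5 none of the 5 was called, with S100a8 at 0.99, S100a9 at 1.40, Hba-a1 at 0.44, Hbb-bs at 0.52 and Hbb-bt at 0.97. The neutrophil sum was 37.0 to 158 and 53.2 to 120 CPM and the erythroid sum 6.53 to 68.9 and 26.9 to 134 CPM. Keratins gave wide ranges, with Krt19 at 1.85 ± 0.92 and Cdh1 at -0.35 ± 0.27. Of the epithelial list, 4 of 5 tested were above 0, with a median of 1.65, and 0 were past the threshold. The sum of the keratins with Cdh1 and Epcam was 17.8 to 103 and 10.9 to 164 CPM. The part of these cells in the levels of Cfd and Retn was not tested.

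The genes whose pattern was most like that of Cfd were ranked by Pearson's r of log2 CPM over 17 tumors after removing group means, as a description. The closest was Hp, haptoglobin, at 0.98, ahead of the members Fabp4 and Adipoq at 0.94, which ranked 2 and 3 of 13003 genes. Lpl ranked 9, Car3 12, Cidec 23, Plin1 24 and Pparg 237. Of the genes that are not members, Cdo1, a cysteine dioxygenase, followed at 0.92, Lrg1, a secreted leucine-rich glycoprotein, at 0.92, Sncg, a synuclein, at 0.90, and Ephx2, an epoxide hydrolase, at 0.90. The other 5 were Mmp3 and St14 at 0.87, Plxdc2 and Myl9 at 0.85 and Acta2 at 0.85. For Retn the members Cfd, Car3 and Adipoq ranked 3, 6 and 9, and the 5 closest genes that are not members were Thrsp at 0.89, Mmp3 at 0.89, Hp at 0.88, Ly6d at 0.88 and Fpr2 at 0.83.

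Hp showed how close the match was. Its level was 37.7 CPM on average in the control and 72.1 in the cryoablation tumors, a log2 fold change of 0.94 ± 0.48, and it was not past the threshold. Its count ratio to Adipoq was 8.47 to 26.7 in the controls and 22.6, 15.3 and 29.6 in cryoablation replicates 2, 4 and 5, so replicate 5 was the only one of these 3 above the control range. Among the other cryoablation tumors the ratio reached 27.3 in replicate 8. It rests there on 3 Adipoq counts and cannot be placed against the control range.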

How the data were processed

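RNA of 17 distant MC38 tumors was sequenced on a NovaSeq platform after mRNA selection with magnetic beads. The authors deposited a read count per gene and tumor, not normalized, and FPKM, which equalled count over listed length and total count within 1% for 100% of values. The labels name GRCm38 and mm10. The aligner, counter and strandedness are not given in the sources used here. The positions in the table equal GENCODE M21 for 499 of 21827 genes. 0 columns were left without a sample and 0 pairs of libraries were identical.

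edgeR 4.0.16 in R 4.3.3 was run with TMM, filterByExpr and the quasi-likelihood F test on group alone, and p-values were adjusted by Benjamini-Hochberg over 13005 genes. The SE is the log2 fold change over the root of F. Alternatives used DESeq2 1.42.0, limma 3.58.1 voom with quality weights, upper-quartile factors, no filter, a replicate block, left-out tumors and offsets for length and GC content. The fits were tested on simulated data with a log2 fold change of 2, called at an adjusted p under 0.05. They recovered 95.4 to 99.0% of changed genes, and false calls were 2.1 to 5.0% of calls, but 14.7% with DESeq2. The simulation held no length trend in single tumors. Log2 CPM had a prior count of 2. Ratio intervals are exact at 95%. A count of 0 was read against a floor of 3 counts. Nothing in the labels says that tumors are 1 per mouse, so p-values measure the spread between these tumors.

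All 10 members are named, with every list gene past the study's threshold and the 2 most abundant tested genes of each list, and the 10 genes most like Cfd and 5 most like Retn. Lipe, Adig, Sncg, Gpd1, Krt10, Egfl7, the marker genes named as lowest or highest of a list and the epithelial markers were named after their values were seen. The members, the lists and the setting apart of cryoablation replicates 2, 4 and 5 were chosen with earlier results of these data known. Promoters came from RefSeq.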

Additional observations from a re-analysis of the deposited data

Results flagged for a closer look

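Of 24 groups of tumors tested for a single distant value, 1 had one. Control replicate 1 had the lowest log2 ratio of Retn to Adipoq counts in its group, -4.25, and the next lowest control was at -2.03. The gap was 0.568 of the range of the 9 tumors, over the critical value of Dixon's test at 95%. The value rests on 1 Retn count beside 28 Adipoq counts. Chance marks about 1 in 20 groups, so 1 of 24 is near that rate.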

How the results depend on the processing

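The main fit put 64 genes past the study's threshold, 46 higher and 18 lower. There were 432 (222 higher, 210 lower) with no filter on low counts, 40 (19 and 21) with offsets for length and GC content, chosen after seeing the data, and 100 without cryoablation replicate 3 and control replicates 3 and 7, also chosen after. DESeq2 gave 74 (52 and 22), upper-quartile factors 57 (36 and 21), voom 79 (10 and 69), and the fit without cryoablation replicates 2, 4 and 5 57 (7 and 50). Leaving out single tumors gave 34 to 165, with 122 without control replicate 1, 120 without control replicate 5, 39, 165, 34, 120 and 106 without cryoablation replicates 2, 3, 5, 6 and 7. The cause of these moves was not tested.

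The labels do not say whether the replicate numbers pair the tumors. Same-numbered tumors correlated at -0.51 to 0.64 and 4 of 8 pairs were over 0.1, with 2 best with their own number. These correlations cannot decide whether the numbers pair the tumors. With the replicate block 33 genes were past the threshold (13 higher, 20 lower), with Cfd at 1.30, Retn at 1.16 and 0 members called, and the median of the members was 0.67.

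Of the related lists, 1 gene was past the threshold in the main fit. There were 2 under voom, under the replicate block, without cryoablation replicates 2, 4 and 5, and without cryoablation 3, control 3 and control 7, then 0 with the offsets, and 1 to 3 without single tumors. Under voom Retn turned to -0.60, Adipoq to -0.10 and Cidec to -0.12, and 5 of 9 members were above 0. Lipe turned to -0.014 without cryoablation replicates 2, 4 and 5. The median member log2 fold change was above 0 in every alternative, at 0.05 under voom and 0.45 to 1.07 without single tumors. All 17 relations of Cfd and Retn with members passed in the main analysis and 16 to 17 without single tumors. Without cryoablation 3, control 3 and control 7, 15 passed. The prior count of 0.5, DESeq2 size factors and removal of group means changed no direction of these relations. Levels as CPM of the total count left the cryoablation mean higher for 9 of 10 members. Counts of Lep and Retn limit what can be read from single tumors.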

Other observations

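Within the cryoablation group Adipoq and Cfd differed widely between tumors. Replicate 3 had 224 counts of Adipoq and 1417 of Cfd, and replicate 8 had 3 and 25. The ratio of Cfd to Adipoq counts was 6.33 in replicate 3, inside the control range, and 8.33 in replicate 8, with a counting interval of 2.54 to 43.1.

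Plin4 did not keep the proportion that Cfd keeps. It had 2.58 to 37.2 counts per Adipoq count in the control tumors, 1.63 to 5.92 in cryoablation replicates 2, 4 and 5, and up to 150 in the other cryoablation tumors. The value of 150 rests on the 3 Adipoq counts of replicate 8. Gpd1, the glycerol 3-phosphate dehydrogenase of fat, had 0.15 to 1.22 in the controls and 0.37 to 0.53 in the same 3 tumors.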
